A study of Saccharomyces cerevisiae with 23 samples.

Results

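The introns of 44 large ribosomal subunit protein genes of Saccharomyces cerevisiae are described here, out of 284 introns in the deposited counts. They were chosen by gene identifier in all the count tables, and they comprise 20 pairs of gene copies (A and B) and 4 single-copy genes, RPL25, RPL28, RPL32 and RPL39. A further 14 large-subunit introns (of RPL7, RPL16, RPL18, RPL22, RPL24, RPL29 and RPL30) were not members and serve only as a comparison. Splicing was measured by multiplexed primer extension sequencing, in which reverse transcription starts from primers placed next to chosen introns. The RNA came from strains in the BY background grown in minimal medium with 2% glucose and collected in log phase or in stationary phase at 48 h. The question was how wild type, a mud1 mutant and a nam8 deletion strain splice in growth and in nutrient depletion. The 8 groups were the wild-type sets WTa and WTb, mud1 (genotype mud1D in the labels) and nam8D, each in both conditions. Every group had 3 libraries, except WTa in log phase with 2.

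Ribosomal protein genes hold a large share of the introns of budding yeast, and their transcripts account for much of the splicing a growing cell performs. The spliceosome begins with the U1 small nuclear ribonucleoprotein, which pairs with the 5′ splice site and holds the proteins Mud1 and Nam8. Most yeast ribosomal proteins come from a pair of gene copies left by an old genome duplication, whose coding sequences are nearly the same and whose introns are not.

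Each library gave, for each intron, a premature count (RNA that still held the intron) and a mature count (spliced RNA). The premature share is the premature count as a percentage of both. Tested changes are differences in log2 of premature over mature, so a higher value means more unspliced relative to spliced RNA. Library totals ran from 3343811 to 12068685 counts, and the members took between 26% and 36.2% of them. No member had fewer than 22 premature or 747 mature counts in any library, and all 44 were among the 265 introns tested. MUD1, which holds an intron itself, had between 1328 and 5543 mature counts in every wild-type and nam8D library, and 1 mature count in mud1 log-phase replicate 1. It was not listed in the remaining mud1 libraries. NAM8 was not checked in this way.

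The wild-type sets differed from each other, so many of the comparisons that use them are also given with 1 set alone. Counts called with 1 set alone, or in any other alternative setting, are given without the share of all introns called. In log phase, 10 members were higher and 10 lower in WTb than in WTa (edgeR, adjusted p under 0.05), where 30.2% and 17.4% of all tested introns were called higher and lower. At 48 h 19 were higher and 3 lower, against 51.3% and 5.66% of all. RPL31A shares in log phase were 1.36% and 1.24% in WTa, against 0.357%, 0.414% and 0.395% in WTb, a log2 difference of -1.75 ± 0.21 (SE, edgeR adjusted p = 5.3e-08). RPL28 went the other way, with 0.307% in both WTa libraries and 0.687%, 0.831% and 0.695% in WTb, a difference of 1.27 ± 0.15 (edgeR adjusted p = 2.4e-08). The labels give several strain names, which differ within a group and recur across genotypes. With the strain name as a term, WTb against WTa had 8 members called higher and 6 lower in log phase and 11 higher and none lower at 48 h. A set and any handling that went with it cannot be told apart.

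The splice sites carry the features that U1 and the branch point machinery recognise. They were read from the R64 genome of RefSeq for the 43 members whose intron is annotated there, and for RPL32 none is shown. Member introns were 147 to 561 bases long with a median of 405, close to the 408.5 of the small-subunit introns and unlike the 94 of introns in other genes. In 30 of the 43, no more than 20 coding bases precede the intron. The first 6 intron bases were GTATGT in 37 of 43 members (86%, against 74.2% of the annotated introns outside the list). The branch point sequence TACTAAC, searched on the gene strand, was present in 42 of 43 (97.7%, against 78.8%), at 20 to 79 bases from the intron's end. No member intron holds an annotated snoRNA. The first set below shows the 5′ splice sites of the members with the largest rises at 48 h in wild type, 8 exon bases and 12 intron bases each, with the first 6 intron bases in capitals.
RPL21B (YPL079W, intron chrXVI:406647-407067, plus strand): ggtaaatcGTATGTccatat
RPL14A (YKL006W, intron chrXI:432035-432432, plus strand): aaaagaagGTATGTtaaatc
RPL6B (YLR448W, intron chrXII:1028869-1029252, plus strand): cccaacaaGTATGTgtaaag
RPL26B (YGR034W, intron chrVII:555831-556307, plus strand): atctctagGTATGTttggag
RPL31B (YLR406C, intron chrXII:931350-931698, minus strand): acaaaagaGTATGTcgaaat
RPL19B (YBL027W, intron chrII:168425-168808, plus strand): aggaaaatGTATGTttaaca

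The next set holds every member whose first 6 intron bases differ from GTATGT, with the other copy of RPL20 and of RPL40 for comparison.
RPL20A (YMR242C, intron chrXIII:753743-754219, minus strand): cggaaaaaGTGAGTaaatac
RPL20B (YOR312C, intron chrXV:900768-901193, minus strand): aagaaaaaGTATGTaataga
RPL27A (YHR010W, intron chrVIII:126552-127112, plus strand): taaagttgGTACGTatcatt
RPL27B (YDR471W, intron chrIV:1401801-1402184, plus strand): taaagttgGTACGTaaattt
RPL40A (YIL148W, intron chrIX:68716-69149, plus strand): atgcaaatGTATGCaccata
RPL40B (YKR094C, intron chrXI:618375-618742, minus strand): atgcaaatGTATGTtacggc
RPL43A (YPR043W, intron chrXVI:654168-654570, plus strand): acaaaaatGTATGAtatatt
RPL43B (YJR094W-A, intron chrX:608307-608581, plus strand): aaaaaaatGTATGCatataa

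The RPL17 and RPL35 copies were among the members that differed between the nam8D and mud1 strains at 48 h. They have the common 5′ splice site, and their flanking bases differ.
RPL17A (YKL180W, intron chrXI:109578-109883, plus strand): acgctgaaGTATGTcaagaa
RPL17B (YJL177W, intron chrX:91095-91411, plus strand): atgctgaaGTATGTttaaaa
RPL35A (YDL191W, intron chrIV:117667-118157, plus strand): tcgaaatgGTATGTttgaga
RPL35B (YDL136W, intron chrIV:217603-218007, plus strand): taaaaatgGTATGTagagat

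Branch points are shown for the RPL19 copies, because RPL19A (YBR084C-A, intron chrII:414754-415259, minus strand) was the member without TACTAAC. The CTAAC of RPL19A, in capitals, lies 14 bases from the intron's end by the same measure that puts the TACTAAC of RPL19B at 41. It is a sequence match only, outside the 20 to 79 bases of the members with TACTAAC. Its use as a branch point was not tested.
RPL19A branch region: taataaCTAACatga
RPL19B branch region: acttTACTAACatca

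The plot of premature shares in all libraries shows how widely the members differed in log phase. In wild type RPL23A, a protein of the surface that joins the small subunit, had the highest share among members in each library, between 7.38% and 9.04%, and RPL2A, which lies near the catalytic centre, followed with 2.47% to 4.18%. RPL39, the small protein that lines the exit tunnel for new chains, was near the bottom, with 0.122% to 0.183%. RPL23A also had the lowest mean total count of the members, 1662.3, against 17693.7 for RPL23B. The median member share was 0.560% in WTa and 0.550% in WTb (medians of group means over 44 members). The small-subunit introns stood at 0.536% and 0.440%, and the 162 tested introns of other genes at 9.64% and 11%. Members with more counts had lower shares: across the 44, r was -0.78 and rho -0.79 between log2 of the mean total count and the log-phase log2 ratio in wild type. Both quantities contain the mature count, so they are not independent. With intron length r was -0.13 (n = 43), with the distance from branch point to intron end 0.04 (n = 42) and with the coding bases before the intron 0.23 (n = 43).

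**Figure D1:**
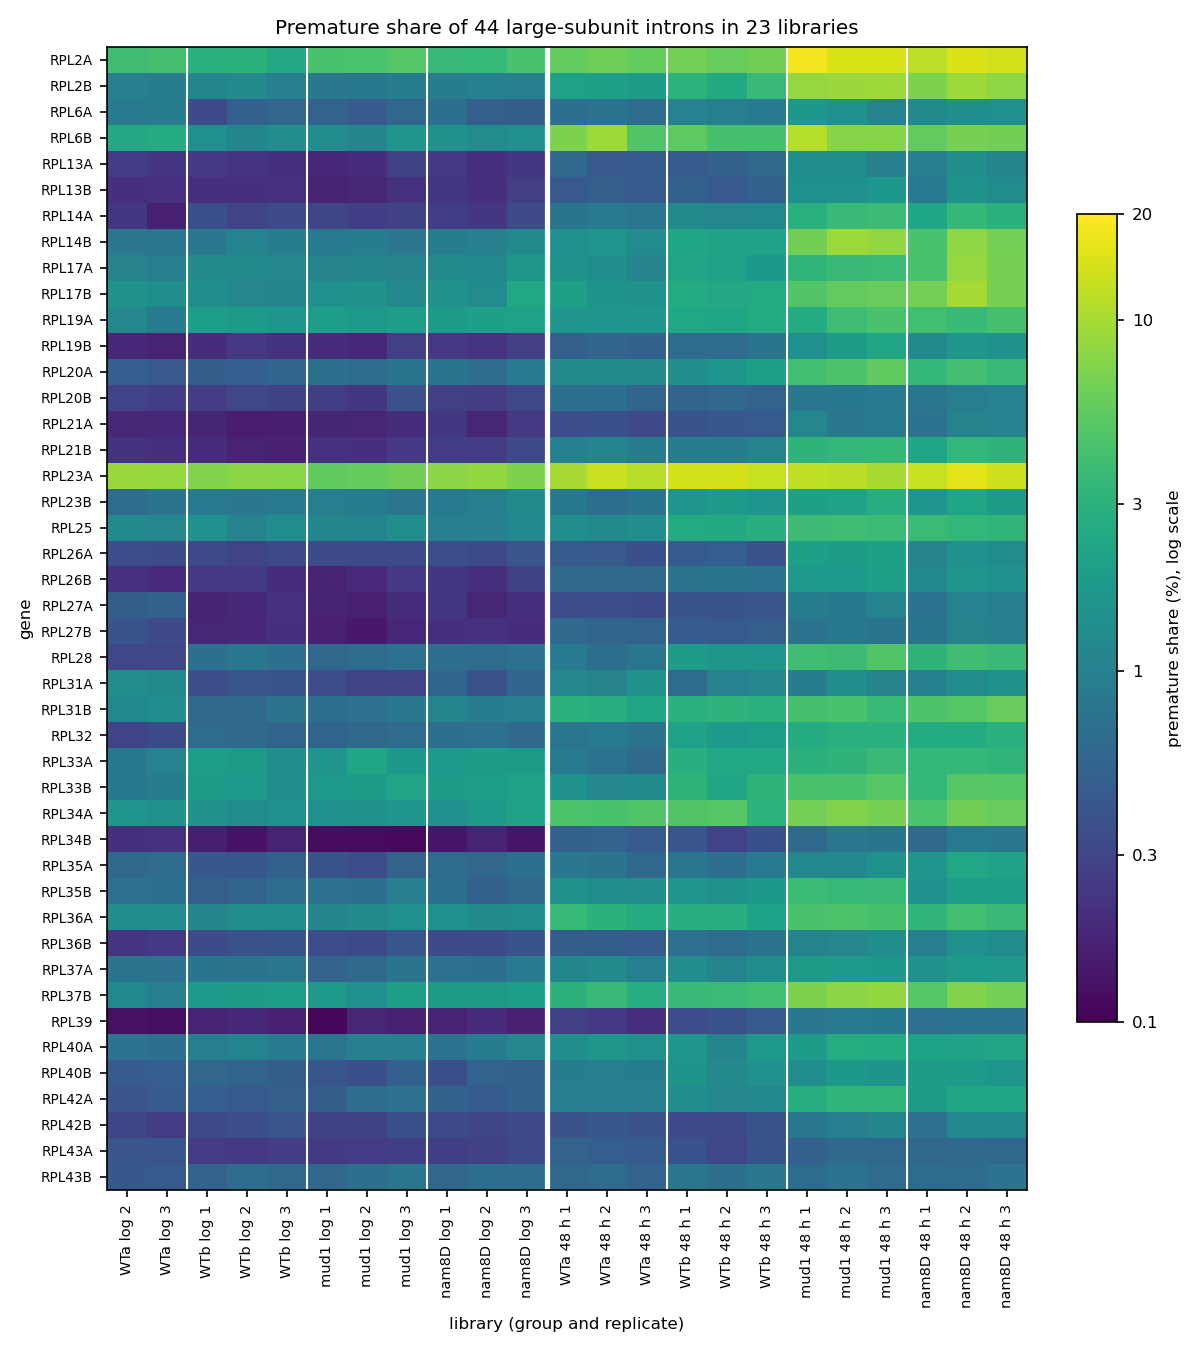
Premature share of each of the 44 member introns (rows) in each of the 23 libraries (columns, by group and replicate), on a log colour scale in percent; the thick white line parts log phase from 48 h. RPL23A and RPL2A are the brightest rows, and the mud1 and nam8D columns at 48 h are brighter than the wild-type ones in most rows.

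At 48 h in wild type, 43 of 44 members had a higher ratio of premature to mature RNA than in log phase and none a lower one. Among all 265 introns tested 51.7% were called higher and 28.7% lower (edgeR quasi-likelihood test, adjusted p under 0.05). The lowest member value was 0.12. The median change of the members was 1.06 on the log2 scale, beside 0.29 over all introns, 1.04 over the small-subunit introns (40 of 45 higher, 1 lower) and -0.19 over other genes (42 of 162 higher, 75 lower). For 30 members the 6 libraries at 48 h all lay above the 5 in log phase, which held for 36.2% of all introns. After subtracting the median intron of each library, which is called centring below, limma called 35 members higher and none lower. Centred changes are relative to the median intron, and the shares of all introns called with centring are not given here.

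RPL21B rose most. Its share was 0.217% and 0.210% in WTa and 0.198%, 0.170% and 0.161% in WTb in log phase, and ran from 0.920% through a median of 0.989% to 1.13% at 48 h. The means were 0.191% ± 0.0245 (SD, n = 5) and 1.0% ± 0.0872 (SD, n = 6). The groups did not overlap, and the log2 change was 2.38 ± 0.11 (SE, edgeR adjusted p = 1.1e-19). RPL14A ran from 0.159% to 0.361% in log phase and from 0.780% to 1.26% at 48 h, a log2 change of 1.97 ± 0.13 (edgeR adjusted p = 3.2e-15). All its WTa libraries lay below those of WTb in the same condition. RPL6B, RPL26B, RPL31B and RPL19B followed with log2 changes of 1.70 ± 0.14, 1.69 ± 0.11, 1.67 ± 0.11 and 1.62 ± 0.12. RPL26 and RPL31 sit at the rim of the exit tunnel, and RPL19 forms a contact with the small subunit. Of these 6 introns 5 belong to B copies, which make up 20 of the 44 members.

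Among the single-copy genes, RPL32 rose by 1.54 ± 0.09, RPL28, which carries the site of cycloheximide resistance, by 1.29 ± 0.10 with libraries that overlapped between the sets, and RPL39 by 1.07 ± 0.11 (log2 ± SE, edgeR adjusted p between 6.9e-17 and 1.5e-10). RPL25, the exit-tunnel protein that touches the signal recognition particle, rose by 0.61 ± 0.11 (edgeR adjusted p = 4.3e-06) and its libraries overlapped. WTb alone gave 1.06 ± 0.15 for RPL25, and WTa alone 0.15 ± 0.15, which did not pass (edgeR adjusted p = 0.4).

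RPL33A was the member without a call, at 0.12 ± 0.11 (edgeR adjusted p = 0.33). Its shares in WTa were 0.857% and 1.04% in log phase and 0.873%, 0.757% and 0.630% at 48 h, and in WTb 1.96%, 1.81% and 1.41% in log phase and 2.78%, 2.41% and 2.41% at 48 h. WTb was higher at 48 h in every library, while the WTa libraries overlapped. WTb alone gave 0.57 ± 0.14 (edgeR adjusted p = 6.1e-04). WTb alone called 43 members higher and none lower, and WTa alone 33 higher and 1, RPL27A, lower. The shares of all introns called with 1 set alone are not given here.

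**Figure D2:**
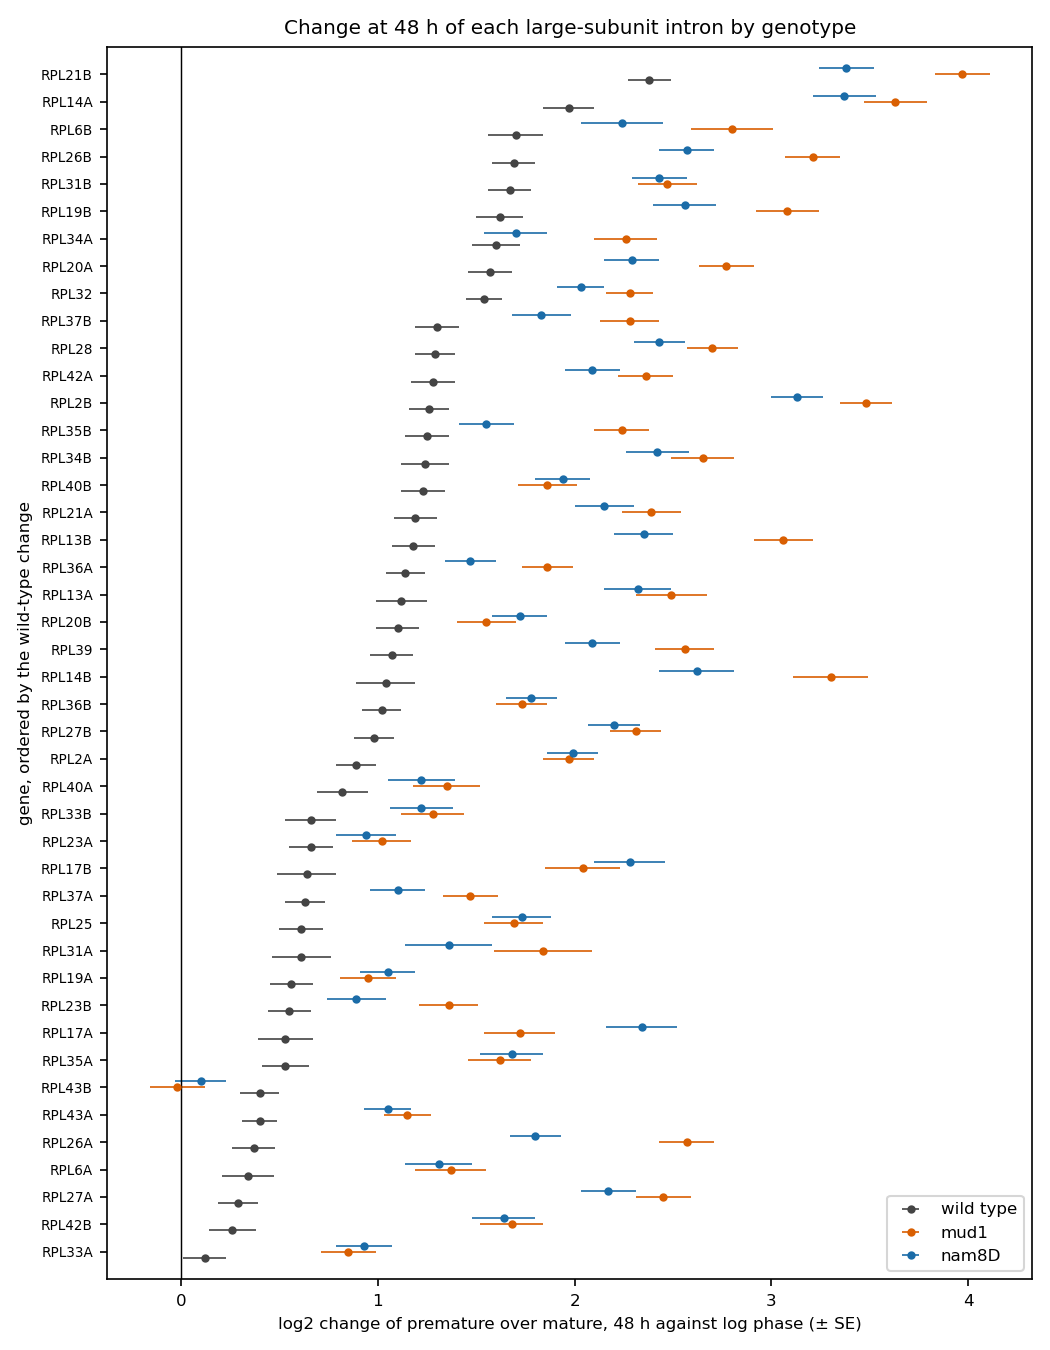
Change of each member from log phase to 48 h in log2 of premature over mature, with its standard error, in wild type (both sets), mud1 and nam8D; genes are ordered by the wild-type change. All points lie above 0 except RPL43B in mud1, and most mutant values exceed the wild-type value of the same gene.

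Counts of both products moved. Relative to library totals, the premature counts of all 44 members were higher at 48 h than in log phase in wild type, by a median of 0.76 on the log2 scale, and the mature counts of 33 were lower, with a median of -0.25 (group means, pseudocount 0.1, no test). These changes are means over both sets, and in WTa alone the mean premature counts of RPL2A, RPL6A, RPL23B, RPL27A and RPL31A were not higher at 48 h. Over all 265 introns, as means over both sets, premature counts were higher for 245 and mature counts lower for 98. The medians were 0.92 and 0.41. RPL26B had 1.02 for premature and -0.67 for mature counts. In the mutants the members' median premature change was 1.62 in mud1 and 1.71 in nam8D, close to the 1.61 and 1.58 over all introns. The mature medians were -0.39 and -0.24, beside 0.25 and 0.23 over all introns. RPL14B in mud1 had 3.33 for premature and 0.05 for mature counts.

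In both mutants the change at 48 h was called higher for 43 members and lower for none, where 64.9% (mud1) and 70.9% (nam8D) of all introns were higher and 15.5% and 9.81% lower (edgeR). For 43 members in each mutant all libraries at 48 h lay above those in log phase, which held for 65.3% and 72.8% of all introns. The members' medians were 2.25 and 1.96, beside 1.08 and 1.10 over all introns. With centred libraries limma called 40 members higher and 1 lower in mud1 (median 1.48), and 33 higher and 1 lower in nam8D (median 0.86), RPL43B being the lower member in both. In the edgeR tests the members without a call were RPL33A in wild type and RPL43B in both mutants. RPL21B had the largest change in each mutant. Its shares in mud1 were 0.211%, 0.203% and 0.239% in log phase and 3.12%, 3.33% and 3.43% at 48 h, and in nam8D 0.261%, 0.262% and 0.324% and then 2.24%, 3.33% and 3.15%. The groups were apart, and the changes were 3.97 ± 0.14 and 3.38 ± 0.14. RPL14A (3.63 and 3.37), RPL2B (3.48 and 3.13), RPL14B (3.30 and 2.62), RPL26B (3.21 and 2.57) and RPL19B (3.08 and 2.56) came next in mud1 and nam8D, each with libraries that did not overlap.

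RPL43B, whose 5′ splice site is GTATGC, was the exception in both mutants. Its shares in mud1 were 0.580%, 0.708% and 0.802% in log phase and 0.657%, 0.751% and 0.642% at 48 h, and in nam8D 0.579%, 0.677% and 0.666% and then 0.654%, 0.644% and 0.757%. The libraries overlapped, with changes of -0.02 ± 0.14 and 0.10 ± 0.13 (edgeR adjusted p = 0.89 and 0.53). In wild type RPL43B rose by 0.40 ± 0.10 (edgeR adjusted p = 4e-04). RPL43A, with GTATGA, rose by 1.15 and 1.05 in mud1 and nam8D. RPL40A has the same GTATGC as RPL43B and was called higher at 48 h in both mutants. Its shares went from 0.794%, 1% and 1.01% to 1.84%, 2.67% and 2.63% in mud1. In nam8D they went from 0.746%, 0.929% and 1.17% to 2.16%, 2.1% and 2.22%.

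Set directly against wild type at 48 h, mud1 was higher in 41 members and nam8D in 39, with none lower, while 90.6% and 88.3% of all introns were higher and 1.13% lower in each (edgeR). The lowest member values were -0.18 (RPL23A) in mud1 and 0.02 (RPL43B) in nam8D. All libraries of the mutant lay above wild type for 37 members in mud1 and 36 in nam8D (79.6% and 74.3% of all introns). The members' medians of 1.22 and 1.05 were close to the 1.11 and 1.01 over all introns. Both comparisons use the same wild-type libraries. With centred libraries limma called 23 members higher and 9 lower in mud1, and 21 higher and 12 lower in nam8D. These calls are relative to the median intron. RPL23A, RPL31A and RPL43B passed in neither mutant, and RPL6B and RPL35B did not pass in nam8D.

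The catalytic-centre protein RPL2 and the surface protein RPL14 were among the members furthest from wild type. RPL14B shares at 48 h ran from 1.29% to 2.31% in wild type, were 6.54%, 9.13% and 8.46% in mud1 and 4.38%, 8.20% and 6.57% in nam8D. Every mutant library was above every wild-type one, by 2.26 ± 0.15 in mud1 and 1.88 ± 0.15 in nam8D (log2 ± SE, edgeR adjusted p = 4.7e-15 and 3.9e-13). RPL2B ran from 1.86% to 3.54% in wild type and was 8.72%, 8.98% and 9.22% in mud1 and 7.04%, 9.16% and 8.06% in nam8D, differences of 1.98 ± 0.11 and 1.81 ± 0.11. RPL2A reached 18.1%, 14.8% and 14.8% in mud1, the highest member shares of those libraries. RPL28 was 1.88 ± 0.11 and 1.66 ± 0.11 above wild type, RPL39 1.48 ± 0.12 and 1.28 ± 0.12, RPL32 1.19 ± 0.10 and 1.13 ± 0.10, and RPL25 1.05 ± 0.13 and 0.90 ± 0.12. The set moved some of these sizes, with every value still called. RPL32 was 1.81 and 1.76 above WTa alone and 0.56 and 0.51 above WTb alone in mud1 and nam8D. RPL25 was 1.55 and 1.40 above WTa and 0.54 and 0.39 above WTb, and RPL28 in nam8D 2.23 and 1.09. With centred libraries RPL25 had no call in either mutant. RPL20A, the member with GTGAGT, was 1.76 ± 0.12 above wild type in mud1.

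RPL26A, of the tunnel rim, rose by 0.37 ± 0.11 in wild type at 48 h and by more in the mutants. WTa alone gave 0.25 ± 0.15 for RPL26A, without a call. Its shares were between 0.298% and 0.354% in log-phase wild type and between 0.361% and 0.492% at 48 h. At 48 h they were 1.98%, 1.82% and 2.03% in mud1 and 1.07%, 1.46% and 1.29% in nam8D. The difference from wild type at 48 h was 2.21 ± 0.11 in mud1 and 1.58 ± 0.11 in nam8D (edgeR adjusted p = 4.9e-18 and 2.7e-14).

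The change at 48 h was tested for a difference between each mutant and wild type. It was larger in mud1 for 41 members and smaller for 1, where 65.3% and 4.91% of all introns were called (edgeR). RPL19A and RPL23A were not called, and the smaller change was that of RPL43B, -0.43 ± 0.17 (edgeR adjusted p = 0.027). The call on RPL43B was lost with either wild-type set alone (-0.44 with WTa, -0.41 with WTb) and without any 1 of 5 libraries (WTa log-phase replicate 2, mud1 log-phase replicates 2 and 3, mud1 48 h replicates 1 and 3), where it lay between -0.41 and -0.32. In nam8D 36 members changed more than in wild type and none less, against 75.8% and 3.02% of all. With centred libraries limma called 29 members larger and 1 smaller in mud1, and 9 larger and 7 smaller in nam8D. These calls too are relative to the median intron. Before centring the members' medians were 1.09 in mud1 and 0.85 in nam8D, beside 0.72 and 0.81 over all introns. A single wild-type set gave 40 (WTa) and 35 (WTb) calls in mud1 and 38 and 30 in nam8D.

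In log phase the mutants differed less from wild type, and the wild-type set decided most calls. In mud1 11 members were called higher and 7 lower (47.9% and 7.92% of all introns), and in nam8D 11 higher and 3 lower (29.4% and 7.17%; edgeR). Their medians were 0.01 and 0.16, beside 0.31 and 0.17 over all introns. Against WTb alone the calls fell to 3 higher (RPL2A, RPL20A, RPL35B) and 2 lower (RPL2B, RPL23A) in mud1, and to 5 higher (RPL2A, RPL20A, RPL21B, RPL31B, RPL35A) and none lower in nam8D. With centred libraries limma called 1 higher and 26 lower in mud1, and 9 higher and 7 lower in nam8D. These are again relative to the median intron.

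RPL20A kept its direction in log phase against both sets. Its shares were 0.483% and 0.440% in WTa, 0.479%, 0.484% and 0.564% in WTb, 0.713%, 0.649% and 0.781% in mud1 and 0.781%, 0.662% and 0.880% in nam8D. Both mutants lay above every wild-type library, by 0.56 ± 0.13 and 0.67 ± 0.13 (edgeR adjusted p = 4.1e-04 and 7.6e-05). Centred libraries left 0.15 for RPL20A in mud1, without a call. RPL23A was lower in mud1, by -0.55 ± 0.13, with 5.44%, 5.70% and 6.39% against 7.38% to 9.04% in wild type. RPL2A was higher by 0.47 ± 0.11, though WTa alone gave 0.20 ± 0.14 and centred libraries 0.06, neither of them called. The lower RPL31A of mud1, -1.18 ± 0.20, became -0.31 ± 0.24 with WTb alone and was not called, and RPL34B went from -0.61 ± 0.16 to -0.38 ± 0.18. In nam8D RPL33B was higher by 0.70 ± 0.15 and RPL23B by 0.39 ± 0.13, both without a call against WTb alone (0.26 ± 0.16 and 0.24 ± 0.15), and RPL21B was higher by 0.54 ± 0.13.

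The mutants were also compared with each other, which needs no wild-type library. In log phase 6 members were higher in nam8D and 1, RPL35B, lower (10.9% and 25.3% of all introns; edgeR). The 6 were RPL31A, RPL35A, RPL23A, RPL31B, RPL21B and RPL27B, at log2 differences of 0.66, 0.58, 0.45, 0.39, 0.37 and 0.37. Leaving out single libraries took the number called to between 3 and 9. With centred libraries limma called 34 higher and none lower, relative to the median intron. Before centring the members' median was 0.16, beside -0.05 over all introns. The share of all introns called with centring is not given here. At 48 h 3 members were higher in nam8D (RPL17A, RPL35A and RPL17B) and 5 lower (RPL35B, RPL26A, RPL42A, RPL26B and RPL20A), where 9.43% and 17.7% of all introns were called. Without nam8D replicate 2 the counts at 48 h became 2 higher and 13 lower, and without mud1 replicate 2 they became 2 and 3.

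RPL35, a protein at the exit of the tunnel, parted the mutants by copy at 48 h and, with overlapping RPL35B libraries, in log phase. RPL35A shares at 48 h were 0.842%, 0.769% and 0.605% in WTa, 0.799%, 0.697% and 0.889% in WTb, 1.19%, 1.19% and 1.49% in mud1 and 1.59%, 2.37% and 2.10% in nam8D. RPL35B shares were 1.52%, 1.37% and 1.35% in WTa, 1.57%, 1.53% and 1.67% in WTb, 3.73%, 3.48% and 3.61% in mud1 and 1.45%, 1.90% and 1.93% in nam8D. So RPL35A was highest in nam8D and RPL35B in mud1, and in nam8D RPL35B overlapped wild type. Between the mutants RPL35B was -1.07 ± 0.14 lower and RPL35A 0.65 ± 0.15 higher in nam8D (edgeR adjusted p = 3e-07 and 0.0016). The strain name as a term left RPL35A at 0.59, without a call.

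Both copies of RPL17, a protein that lines the tunnel, were higher in nam8D. RPL17A shares at 48 h were 4.41%, 8.64% and 6.78% in nam8D and 3.20%, 3.56% and 3.69% in mud1, while wild type ran from 1.08% to 2.20%. The 3 genotypes did not overlap, and nam8D was 0.93 ± 0.17 above mud1 (edgeR adjusted p = 1.1e-04). RPL17B was 6.63%, 9.76% and 6.73% in nam8D and 4.76%, 5.62% and 5.80% in mud1, a difference of 0.53 ± 0.18 (edgeR adjusted p = 0.025), which did not pass without nam8D replicate 2 (0.32), mud1 replicate 1 (0.44) or mud1 replicate 2 (0.56), or with the strain term (0.46). RPL26A was lower in nam8D than in mud1 by -0.63 ± 0.13, and RPL42A by -0.57 ± 0.13, which the strain term took to -0.34 without a call. RPL26B, at -0.36 ± 0.14, lost its call with DESeq2 (adjusted p = 0.058) and with many single libraries left out, at values from -0.24 to -0.40. The RPL20A difference of -0.37 ± 0.14 had libraries that overlapped.

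**Figure D3:**
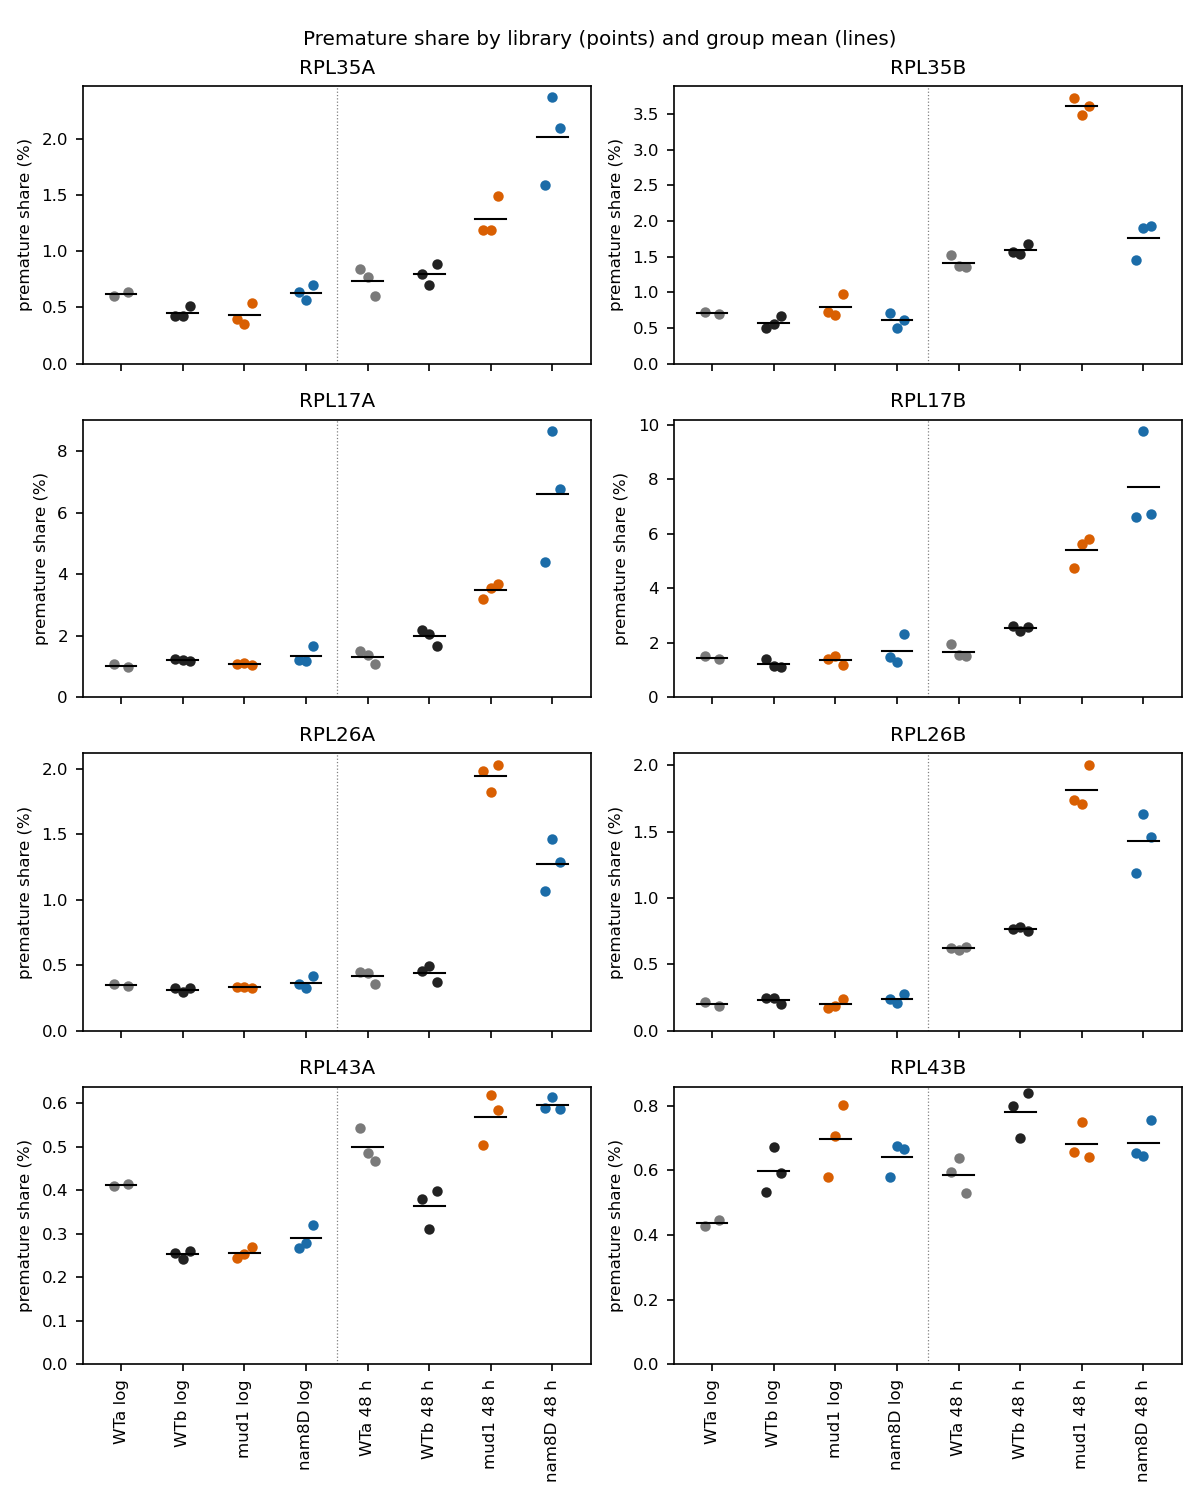
Premature share in percent of both copies of RPL35, RPL17, RPL26 and RPL43 in every library (points) with the group mean (line), for log phase left and 48 h right of the dotted line; each panel has its own axis from 0. At 48 h nam8D is highest for RPL35A and RPL17A, mud1 for RPL35B and RPL26A, and RPL43B overlaps between genotypes.

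The copies of each pair were compared within a library, as the A minus B difference in log2 of premature over mature (limma, pseudocount 0.5). The copies differ in 1 to 12 of the first 60 bases after the intron (median 4), and in 6 pairs (RPL2, RPL14, RPL21, RPL34, RPL35 and RPL42) in no more than 2. The sources used here do not say how reads were assigned to a copy, so reads could be split between near-identical copies and the values are uncertain to that extent. In log-phase wild type 18 of 20 pairs differed between copies, while 89.4% of the 47 pairs with both copies tested did, and at 48 h 19 of 20, with 89.4% again (limma, adjusted p under 0.05). The median size of the difference was 0.72 and 1.32, beside 1.30 and 1.24 over all pairs. The widest gaps in log phase were those of RPL23 (3.52 ± 0.11), RPL34 (3.07 ± 0.10), RPL19 (2.79 ± 0.09) and RPL36 (2.16 ± 0.09), with the A copy less spliced in each. The B copy was the less spliced in RPL14 (-1.79 ± 0.09) and RPL6 (-1.49 ± 0.11). RPL2 stood at 1.73 ± 0.08, and its introns are 147 (A) and 400 (B) bases long.

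The copies of 15 of 20 pairs moved differently from log phase to 48 h in wild type (70.2% of all pairs, limma). The B copy rose more in 11 and the A copy in 4. How all 47 pairs split between the copies is not given here. An exact permutation of libraries within each wild-type set called 13, and limma with either set alone 12. In RPL26 the A minus B difference was 0.73 and 0.86 in WTa and 0.41, 0.28 and 0.70 in WTb in log phase, and -0.47, -0.47 and -0.80 in WTa and -0.76, -0.67 and -1.02 in WTb at 48 h. The sign turned in every library set against log phase, a change of -1.33 ± 0.11 (limma adjusted p = 1e-11). At 48 h the RPL26 difference was 0.19, 0.10 and 0.03 in mud1 and -0.15, -0.16 and -0.18 in nam8D, so in mud1 it kept the sign of log phase. RPL6 changed by -1.34 ± 0.15, RPL21 by -1.19 ± 0.11, RPL31 by -1.08 ± 0.16, RPL19 by -1.06 ± 0.11 and RPL42 by 1.02 ± 0.12 (limma). RPL6 was -1.87 in WTa alone and -0.80 in WTb alone, and RPL42 0.67 and 1.37, all of them called. Among these pairs RPL31 had libraries that overlapped, since WTa and WTb stood apart in log phase. In RPL21 the copies were close in log phase, between -0.30 and -0.03, and between -1.63 and -1.12 at 48 h.

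**Figure D4:**
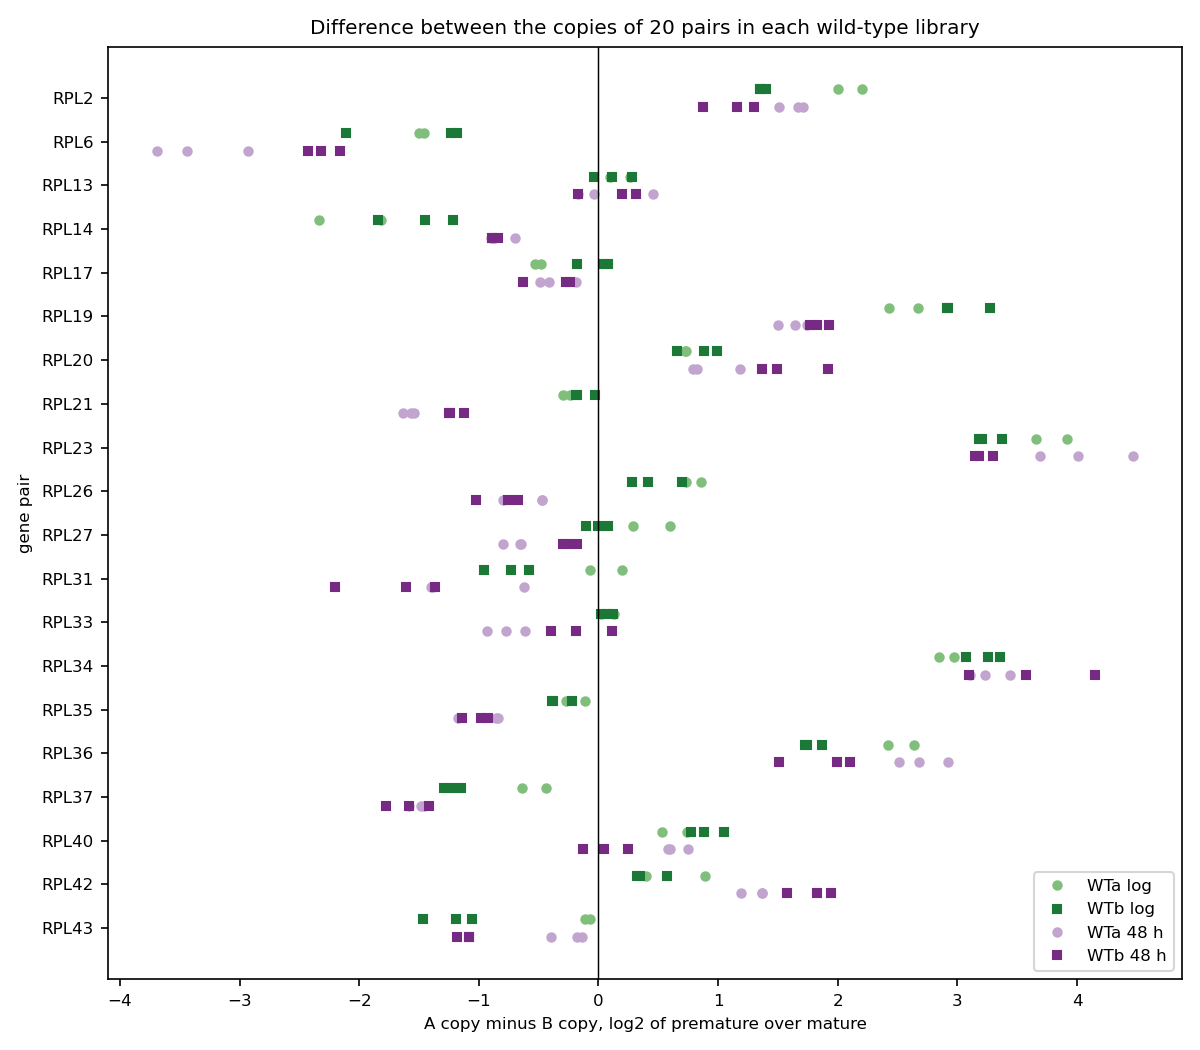
A copy minus B copy in log2 of premature over mature for 20 gene pairs in each wild-type library; green marks log phase, purple 48 h, circles WTa and squares WTb. RPL26 crosses 0 between the conditions, RPL23 and RPL34 stay above 2, and the sets stand apart for RPL43 in both conditions.

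In mud1 14 pairs and in nam8D 13 pairs moved differently at 48 h (72.3% of all pairs in each, limma). RPL19 changed by -2.13 ± 0.15 in mud1 and -1.51 ± 0.15 in nam8D, RPL2 by -1.51 ± 0.14 and -1.13 ± 0.14, and RPL21 by -1.58 ± 0.14 and -1.23 ± 0.14. RPL43 changed by 1.17 ± 0.14 in mud1 and 0.95 ± 0.14 in nam8D and had no call in wild type (-0.01 ± 0.10), but its WTa libraries (-0.07 and -0.11) stood apart from WTb (-1.06, -1.47 and -1.19) in log phase. RPL20, where A has GTGAGT and B has GTATGT, changed by 1.20 ± 0.16 in mud1 and 0.57 ± 0.16 in nam8D.

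Against wild type at 48 h the copies differed in 14 pairs in each mutant (66% of all pairs in each, limma). RPL20 was at 1.26 ± 0.14 and RPL23 at -1.19 ± 0.17 in mud1, and RPL35 at 1.18 ± 0.12 in nam8D. Against WTa alone RPL20 was at 1.59 and RPL23 at -1.61 in mud1, and against WTb alone at 0.93 and -0.77, all of them called. The RPL35 difference was 0.14, 0.32 and 0.12 in nam8D and between -1.17 and -0.84 in wild type. In mud1 it was -1.69, -1.58 and -1.31, so the 3 genotypes did not overlap. The RPL35 difference of mud1 was already below wild type in log phase, at -0.87, -0.97 and -0.87. Wild type then ran from -0.39 to -0.11, and nam8D was at -0.16, 0.18 and 0.19. In log phase the copies differed from wild type in 11 pairs in mud1 and 7 in nam8D (48.9% and 40.4% of all pairs). WTb alone left 4 in each in log phase, and 8 of the 14 in nam8D at 48 h.

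Total counts (premature plus mature) give the abundance of each target relative to the others. The RNA came from whole cultures, so fewer cells with a transcript and less of it per cell cannot be told apart. In wild type 35 members fell and 4 rose at 48 h, where 38.1% and 52.5% of all targets were called lower and higher (edgeR with TMM scaling), with a median of -0.49 beside 0.18 over all targets. RLE scaling moved the median of all targets to -0.07 and that of the members to -0.74, with 41 members lower and 1 higher. Library totals moved these medians to 0.43 and -0.24 and gave 27 members lower and 8 higher. RPL14A fell most, by 1.35 ± 0.07 on the log2 scale, then RPL20A by 1.28 ± 0.04, RPL6B by 1.19 ± 0.07, RPL2B by 1.16 ± 0.07 and RPL21B by 1.05 ± 0.08. Of the 4 called higher, RPL35A (0.40 ± 0.06) became 0.16 with RLE scaling and was still called higher. RPL14B (0.32 ± 0.06) became 0.07 and RPL33A (0.17 ± 0.05) -0.07, neither called, and RPL26A (0.10 ± 0.04) turned to -0.14 and was called lower (edgeR adjusted p = 0.0061). WTb alone left RPL14B at 0.08 and RPL33A at 0.11, and WTa alone left RPL26A at 0.04, each without a call.

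In mud1 34 members fell and 2 rose at 48 h (41.5% and 50.2% of all targets), and in nam8D 31 fell and 5 rose (41.1% and 47.5%; edgeR). RLE scaling left none higher in either, and library totals gave 26 lower and 9 higher in mud1 and 21 lower and 14 higher in nam8D. RPL14A fell by 1.87 ± 0.09 in mud1 and by 1.48 ± 0.09 in nam8D, RPL2B by 1.72 ± 0.09 and 1.59 ± 0.09, and RPL21B by 1.70 ± 0.11 and 1.51 ± 0.10. Against wild type at 48 h mud1 had 25 members lower and 4 higher (41.1% and 35.1% of all), and nam8D 10 lower and 13 higher (41.1% and 32.5%). RPL28 and RPL25 were lower in both, by -0.97 ± 0.06 and -0.71 ± 0.06 in mud1 and by -0.65 ± 0.06 and -0.59 ± 0.06 in nam8D. Against WTb alone RPL28 was at -0.74 and -0.42 and RPL25 at -0.40 and -0.28 in mud1 and nam8D, and against WTa alone RPL25 was at -1.02 and -0.90, all of them called. RPL37A was higher, by 0.24 ± 0.04 and 0.47 ± 0.04. In log phase 13 members were lower and 8 higher in mud1 (17.4% and 24.2%), and 12 lower and 4 higher in nam8D (15.1% and 23.4%). WTb alone left 3 calls in each mutant in log phase. Mature counts alone moved the split between lower and higher among members, and the shares of all targets are not given for them. Against wild type at 48 h they gave 17 lower and 12 higher in mud1 and 9 lower and 17 higher in nam8D, and in log phase 7 lower and 11 higher in mud1 and 10 lower and 7 higher in nam8D.

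The balance of counts between copies moved too. In wild type the log2 ratio of A to B counts changed at 48 h in 15 of 20 pairs (76.6% of all pairs, limma). RPL14 went from 1.92 and 1.85 in WTa and 2.10, 2.04 and 2.10 in WTb to 0.00, -0.05 and -0.05 in WTa and 0.65, 0.60 and 0.71 in WTb, a change of -1.67 ± 0.04 (limma adjusted p = 5.1e-20). The conditions did not overlap, and the sets stood apart at 48 h. RPL26 changed by 1.02 ± 0.04, RPL20 by -0.99 ± 0.05, RPL19 by 0.85 ± 0.04 and RPL6 by 0.82 ± 0.06. The ratio changed in 17 pairs in mud1 and 15 in nam8D (89.4% and 78.7% of all pairs), RPL14 by -1.73 ± 0.05 and -1.55 ± 0.05 and RPL26 by 1.56 ± 0.06 and 1.29 ± 0.06. Against wild type the ratio differed in 7 pairs in each mutant in log phase (46.8% and 44.7% of all pairs) and in 12 in mud1 and 9 in nam8D at 48 h (68.1% and 57.4%). At 48 h mud1 differed in 17 pairs from WTa alone and in 10 from WTb alone.

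In most pairs the copy whose count fell relative to the other was also the copy whose premature to mature ratio rose more. Over the 20 pairs in wild type the changes in copy splicing and in copy counts had opposite signs in 17, with r = -0.82 and rho = -0.85. Over all 47 pairs 34 had opposite signs, with r = -0.39 and rho = -0.58. In mud1 the members gave r = -0.64 with 16 of opposite sign, and in nam8D r = -0.73 with 14. All 47 pairs gave r = -0.33 in each mutant, with 36 of opposite sign in mud1 and 31 in nam8D. Mature counts enter both quantities with opposite sign, and the points share libraries, so these are descriptions without a test.

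**Figure D5:**
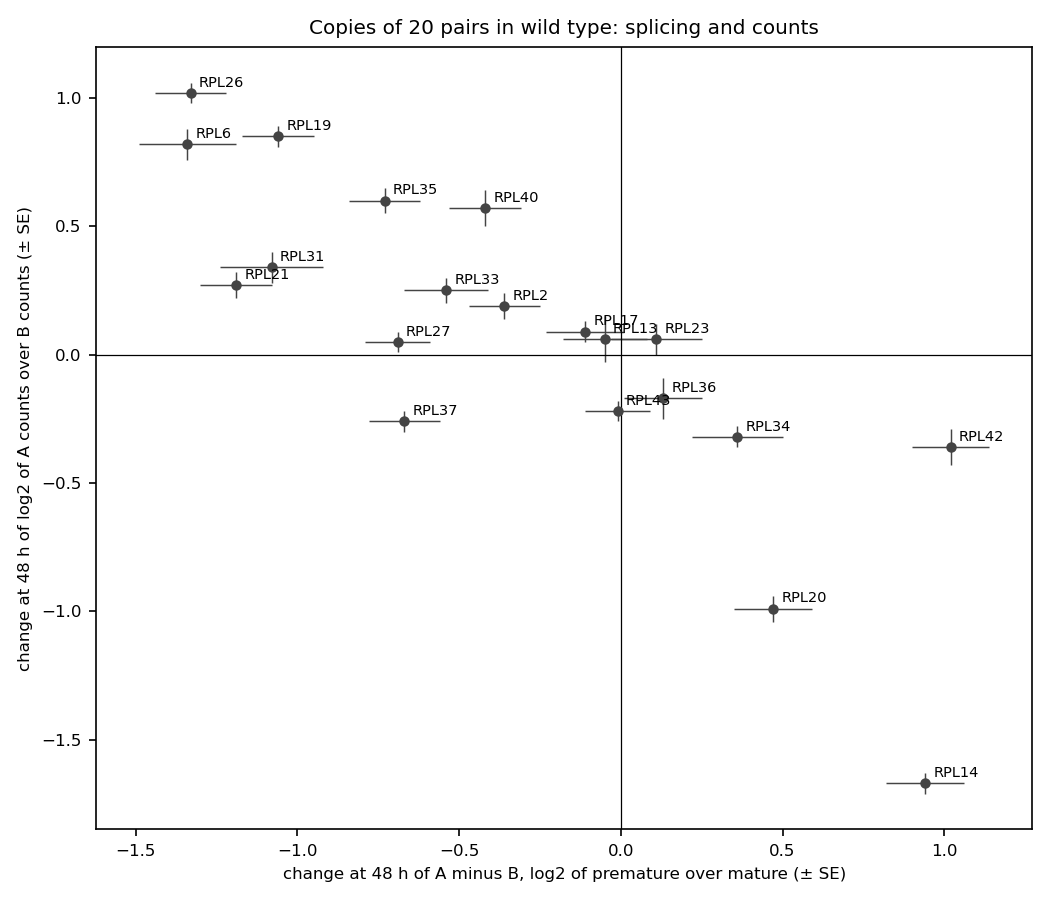
For 20 gene pairs in wild type, the change at 48 h in the A minus B difference of log2 premature over mature (x, with SE) against the change in the log2 ratio of A to B total counts (y, with SE). RPL26, RPL6 and RPL19 lie at the upper left and RPL14, RPL20 and RPL42 at the lower right.

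The changes were also set beside the 5′ splice site and the intron. The 6 members with another site than GTATGT had a median change at 48 h of 0.61 in wild type (0.29 to 1.57), beside 1.10 for the 37 with GTATGT (0.12 to 2.38). In mud1 the medians were 1.83 and 2.24, and in nam8D 1.69 and 1.94. At 48 h their median distance from wild type was 0.65 against 1.26 in mud1 and 0.72 against 1.06 in nam8D, and the ranges overlapped throughout. The 6 include both copies of RPL27 and of RPL43. The mean share of RPL27A fell at 48 h from 0.499% to 0.351% in WTa and rose from 0.188% to 0.395% in WTb. Log2 intron length and the change at 48 h had r = -0.05 in wild type, 0.06 in mud1 and -0.05 in nam8D (n = 43), and the distance from branch point to intron end r = 0.25, 0.03 and 0.02 (n = 42). These points share libraries and are given without a test.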

How the data were processed

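Premature and mature RNA were measured in 23 libraries. Per the file headers and values, the authors deposited whole-number counts per intron and library with no normalization. Per the submitters' processing notes, FastQC, fastp 0.20.0, STAR 2.7.2b and build R64 were used, with no role given for each. The use of molecular identifiers and the assignment of reads to copies are not given in the sources used here.

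Splicing was tested with edgeR 4.0.16 (R 4.3.3), as a quasi-likelihood fit over the paired premature and mature columns of all libraries at once, whose coefficients for library absorb depth and whose coefficients for premature RNA within each group give the log2 ratio. Introns needed a mean of 20 counts and a value in every library. The wild-type value is the mean over both sets. Abundance used the summed counts with TMM scaling and filterByExpr. Copies were compared with limma 3.58.1 on log2 ratios with a pseudocount of 0.5. Tests were two-sided, adjusted by Benjamini-Hochberg over all 265 introns or all 47 pairs, with a threshold of 0.05. DESeq2 1.42.0, limma, centring, other scalings, mature counts alone, count minimums, a block for replicate number, a strain term, single wild-type sets, only the groups compared and each library left out were alternatives. The code was tested on simulated data. Replicates were compared by chi-square over introns, which divided by its degrees of freedom was at least 12.0, so none was a copy of another. Nothing says that replicates came from separate cultures, so p-values measure only the spread between these libraries.

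The text names, per splicing comparison, up to 6 called members in each direction, by size of change, among those with non-overlapping libraries (5 each for abundance, no overlap condition for differences between changes), pairs whose called difference is at least 1, and the single-copy genes. Not all are reported. Members named outside this rule, such as RPL33A, RPL35B in nam8D, RPL43A and RPL43B, were chosen after their values were seen. The members and lists were chosen with earlier results of these data known.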

Additional observations from a re-analysis of the deposited data

Results flagged for a closer look

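No group had more than 3 libraries, so single libraries were not tested for standing apart. The results here are changes at 48 h that differed between genotypes, tested as a difference of changes in edgeR with an adjusted p under 0.05. In mud1 the change exceeded that of wild type by 2.26 for RPL14B, 2.22 for RPL2B, 2.20 for RPL26A, 2.16 for RPL27A, 1.88 for RPL13B and 1.66 for RPL14A on the log2 scale, and was below it for RPL43B, by -0.43. In nam8D the excess was 1.88 for RPL27A, 1.87 for RPL2B, 1.81 for RPL17A, 1.64 for RPL17B, 1.57 for RPL14B and 1.43 for RPL26A. Both mutants were set against the same wild-type libraries.

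The wild-type sets also differed in their change at 48 h, a comparison added after seeing the data. It was larger in WTb for 10 members and smaller for none, where 22.3% and 2.26% of all introns were called. The difference was 1.59 for RPL27A, 1.46 for RPL6A, 1.33 for RPL31A, 1.07 for RPL31B, 0.91 for RPL33A and 0.91 for RPL25. RPL27A shares were 0.480% and 0.518% in log phase and 0.351%, 0.358% and 0.344% at 48 h in WTa, so its change was -0.51 ± 0.15 in WTa and 1.08 ± 0.14 in WTb. The excess of RPL27A in the mutants moved with the set. It was 2.95 in mud1 and 2.67 in nam8D against WTa alone, and 1.36 and 1.09 against WTb alone.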

How the results depend on the processing

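Counts of called members moved by over 1.5 times under these settings. WTb alone gave 5 for mud1 against wild type in log phase (18 with both sets), 5 for nam8D in log phase (14), abundance counts of 3 for mud1 and 3 for nam8D in log phase (21 and 16) and 15 for nam8D at 48 h (23). For pairs it gave copy splicing counts of 4 for mud1 and 4 for nam8D in log phase (11 and 7) and 8 for nam8D at 48 h (14), and copy abundance counts of 3 for mud1 and 0 for nam8D in log phase (7 and 7), where limma gave 5 nam8D pairs an unadjusted p under 0.05. WTa alone gave 12 for copy abundance in mud1 in log phase. The strain term gave 9 for nam8D against wild type in log phase, 3 for nam8D against mud1 at 48 h (8), 11 for WTb against WTa at 48 h (22) and 6 for the difference of changes between the sets (10). For nam8D against mud1 in log phase (7), DESeq2 gave 4, only the groups compared 4 and centred libraries 34. At 48 h only the groups compared gave 5 and centred libraries 13. Centred libraries gave 16 for the difference of changes in nam8D (36). The cause was not tested.

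The wild-type set comparisons were added after seeing the data. The replicate numbers pair nothing in the labels. Same-numbered libraries correlated at -0.308 to 0.249 (median 0.014, 19 of 77 pairs over 0.1), and 5 of 23 libraries correlated best with their own number. With the replicate number as a block the counts of called members stayed within 1.5 times, such as 43 for each change at 48 h and 19 for mud1 in log phase.

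Some values turned in sign, among them called ones. For mud1 against wild type in log phase, RPL25 (-0.04) became 0.01 with WTa alone and 0.00, 0.00 and 0.03 without WTb replicate 1, mud1 replicate 1 and mud1 replicate 2 (-0.15 to 0.03 over all libraries left out). RPL28 (0.47, edgeR adjusted p = 0.0011) became -0.16 and RPL32 (0.45, edgeR adjusted p = 6.5e-04) -0.03 with WTb alone, neither called. RPL39 (-0.00) became 0.01 with the replicate block, 0.23 with WTa alone and turned without WTa replicate 2 (0.01), WTb replicate 2 (0.02) or mud1 replicate 1 (0.19), with a lowest value of -0.15. For nam8D in log phase RPL28 (0.52, edgeR adjusted p = 7.9e-04) became -0.11 with WTb alone, without a call. Centred libraries gave RPL25 -0.01 for nam8D at 48 h (0.90, called) and 0.15 for nam8D against mud1 in log phase, RPL32 -0.34 for the difference of changes in nam8D, and RPL32 -0.05 and RPL39 -0.10 for that between the sets. RPL28 became -0.02 for nam8D against mud1 in log phase without mud1 replicate 1 (-0.02 to 0.14 over all libraries left out), and RPL32 0.07 at 48 h with the strain term. For abundance at 48 h against log phase, RLE factors and DESeq2 both gave RPL33A -0.07 and RPL26A -0.14 in wild type, RPL19A -0.01 in mud1 and RPL37A -0.01 in nam8D.

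Leaving out each library gave 41 to 43 calls for the change at 48 h in wild type and 43 to 43 in each mutant. It gave 15 to 21 for mud1 and 9 to 15 for nam8D against wild type in log phase, 41 to 41 and 38 to 40 at 48 h, 3 to 9 and 5 to 15 for nam8D against mud1 in log phase and at 48 h, and 39 to 43 and 34 to 40 for the differences of changes. Between the sets it gave 16 to 21, 19 to 25 and 7 to 13. For abundance it gave 37 to 41, 36 to 40 and 32 to 36 for the changes at 48 h, and 15 to 25, 25 to 28, 12 to 21 and 19 to 26 for mud1 and nam8D against wild type. For copy splicing it gave 15 to 18 and 19 to 19 for the levels, 14 to 15, 12 to 16 and 13 to 14 for the changes, and 8 to 12, 12 to 15, 4 to 7 and 13 to 15 against wild type. For copy abundance it gave 15 to 17, 16 to 18 and 12 to 15, and 6 to 8, 11 to 16, 5 to 8 and 7 to 10. The low 9 of nam8D in log phase came without WTa replicate 2 or nam8D replicate 3, and the low 4 pairs without nam8D replicate 2 or 3. For nam8D against mud1 in log phase the number was 3 without mud1 replicate 2 and 4 without mud1 replicate 1 or any 1 of the nam8D replicates.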
